A study of Homo sapiens with 40 samples.

Results

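Untreated HPB-ALL, a human line of T-ALL (acute lymphoblastic leukaemia of T-cell precursors), was set against 5 other untreated T-ALL lines. Its members are the libraries whose labels give this line and no treatment, 4 of 40 libraries in the series and 4 of the 24 untreated ones. The other lines were LOUCY, KARPAS-45, TALL-1, DND-41 and ALL-SIL, with 4 libraries each. All lines were grown with fetal calf serum, at 20% for HPB-ALL and KARPAS-45 and at 10% for LOUCY, TALL-1, DND-41 and ALL-SIL, and polyadenylated RNA was sequenced. The study concerned the RNA-binding protein QKI, and it sequenced these lines because they differ in their QKI level. The libraries of its QKI depletion experiments were not used here. Each group is 1 established line, and no label says that its replicates came from separate cultures, so p-values here reflect the spread among these samples alone, and that spread may be technical. A difference is one between lines and cannot be told apart from any difference in their culture. The serum level of HPB-ALL differed from that of 4 of the 5 other lines.

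T cells mature in the thymus, where they rearrange the genes of their receptor from V, D and J segments with the RAG enzymes, pass through a cortical stage that carries CD4, CD8 and the lipid-presenting CD1 proteins, and then lose CD1. T-ALL cells are held at one of these stages, often with a transcription factor switched on that T cells do not normally use. TLX3 is such a factor, a homeobox protein whose gene is placed by translocations in T-ALL near the T-cell gene BCL11B, and HPB-ALL is commonly used as a line of the TLX3 class. Because a line is a clone, its receptor segments are fixed in its genome and mark it.

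The summed gene counts were 45.9 to 53.8 M (1 M is 1e6 counts) in HPB-ALL and 44.1 to 84.0 M in the other lines. Levels are given as counts per 1e6 (CPM) with TMM scaling. A gene at 0 may still stand for up to 3 counts, or 0.0535 to 0.0592 CPM in the HPB-ALL libraries; such floors cover counting error only. All genes of the mitochondrial genome together took 3.78% to 5.61% of the counts in HPB-ALL and 0.671% to 9.49% in the others. HPB-ALL library 4 stood apart from the other 3. Its rank correlation with them was 0.973 to 0.984, against 0.990 to 0.995 among those 3. Of 9288 genes with a mean of at least 10 CPM in HPB-ALL, library 4 lay far above the others in 325 and far below in 168, together 5.31%, and library 1 did so in 1.72%, library 2 in 0.205% and library 3 in 0.172%, where chance puts some library apart in about 1 gene in 20. Differences are given with and without it where it was set apart in a gene the results turn on.

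The 5 marker genes given for this line were chosen with results of these libraries known, so their levels are a description and no independent check of the labels. All 5 were far higher in HPB-ALL than in most or all other lines. TLX3 (ENSG00000164438.6, chromosome 5, 171309284 to 171312134, + strand of GRCh38) stood at 289, 232, 231 and 146 CPM in HPB-ALL libraries 1 to 4. The mean was 225 ± 58.7 (SD, n = 4), against 122 ± 16.8 in DND-41, 0.0243 in TALL-1 and 0 counts in LOUCY, KARPAS-45 and ALL-SIL. DND-41 also had TLX3, and the lowest HPB-ALL library stood only just above the highest DND-41 library (142 CPM). CD1E, a CD1 protein that acts inside the cell in lipid handling, stood at 1118, 1205, 1221 and 992 CPM, 19.2 times its mean in DND-41 (59.1 ± 4.04), the next line. DOCK1, an activator of the small GTPase RAC, stood at 418, 486, 545 and 329.6 CPM and had at most 14 counts in any library of another line. PON2, an intracellular paraoxonase, stood at 48.0, 55.0, 55.2 and 58.0 CPM and had 0 counts in all 20 other libraries. No HPB-ALL library overlapped the others in any of the 5.

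The fifth marker, TRBV5-5 (ENSG00000211725.3, chromosome 7, 142482548 to 142483019, + strand), is a variable segment of the T-cell receptor beta chain. It stood at 999, 864, 842 and 762 CPM in HPB-ALL, with at most 0.265 CPM elsewhere. The segment has close relatives, so its sequence is shown beside that of TRBV5-7, with which it shares 329 of its 350 bases (94.0%), to show what a read must cover to tell them apart. The last 150 bases of each GENCODE 29 transcript are given 5′ to 3′, with the 5 bases that differ in capitals.

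TRBV5-5: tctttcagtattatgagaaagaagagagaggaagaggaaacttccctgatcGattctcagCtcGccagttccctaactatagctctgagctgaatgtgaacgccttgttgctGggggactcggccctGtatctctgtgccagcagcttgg

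TRBV5-7: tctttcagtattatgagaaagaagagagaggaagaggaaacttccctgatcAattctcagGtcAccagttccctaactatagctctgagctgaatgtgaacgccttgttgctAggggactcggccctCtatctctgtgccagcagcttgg

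The 4 HPB-ALL libraries together held 186682 counts for TRBV5-5, 16 for TRBV5-7, 8 for TRBV5-6, 243 for TRBV5-4 and 1 for TRBV5-1. TRBV5-5 took 75.7 ± 1.09% of all TRBV counts in HPB-ALL (SD, n = 4), and TRBV7-3 took 18.1 ± 1.60%. In each library TRBV5-5 led, with 74.8%, 76.0%, 75.0% and 77.2%. Among alpha-chain segments TRAV19 took 58.4 ± 3.65%, TRAV5 26.0 ± 2.41% and TRAV4 9.39 ± 1.69%, and among gamma-chain segments TRGV3 took 99.4 ± 0.105%. The 3 delta-chain V segments had 0 counts. Gene totals do not show which of these segments were joined to a constant region, and short reads from related segments may have been split between them.

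**Figure D1:**
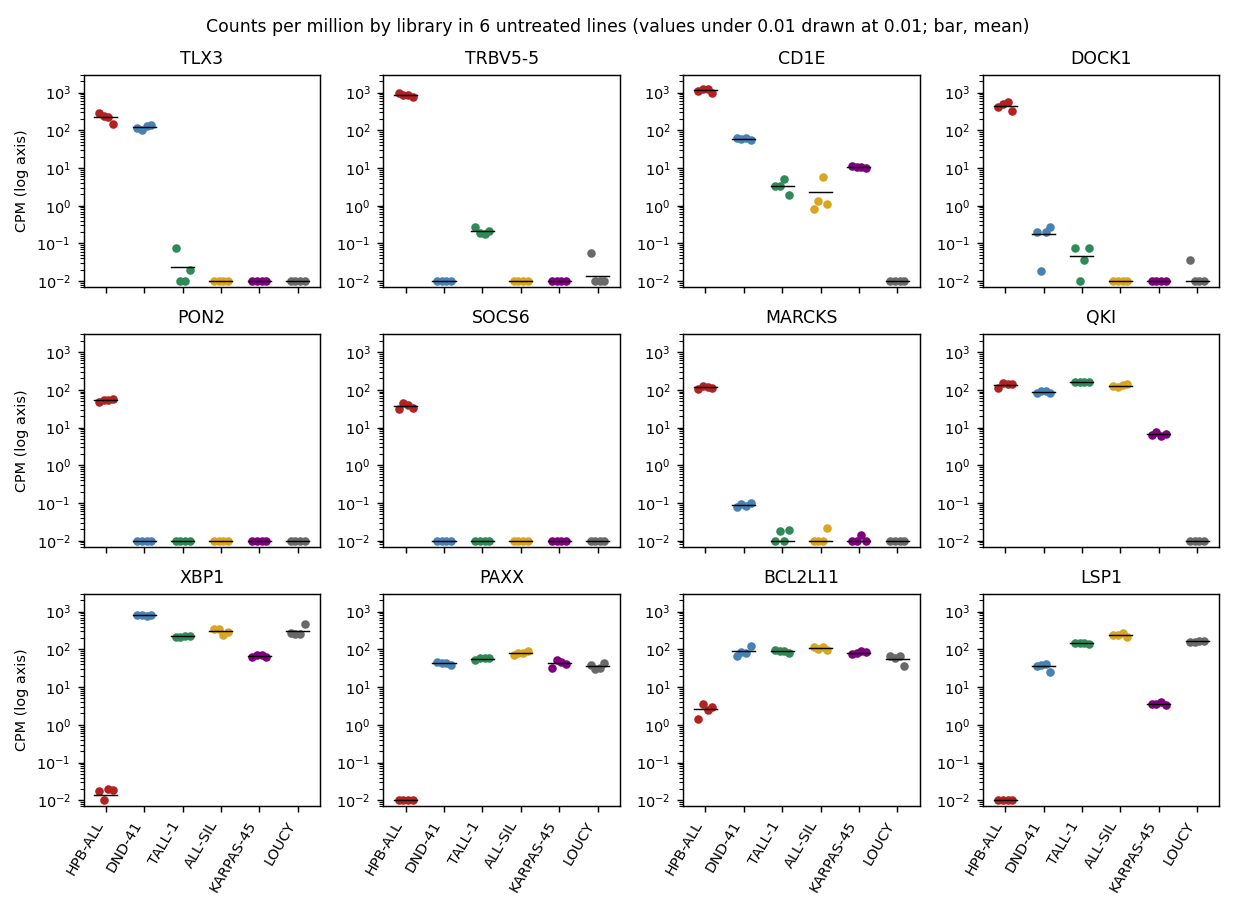
CPM on a log axis of 12 genes in each of the 24 untreated libraries, with lines on the x axis, 1 point a library and a bar at the mean; values under 0.01 are drawn at 0.01. TLX3 is present in HPB-ALL and DND-41, PON2 and SOCS6 have counts in HPB-ALL alone among these lines, and PAXX and LSP1 are at 0 in HPB-ALL.

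The main test set HPB-ALL against the mean of the 5 other line means on the log2 scale (edgeR quasi-likelihood test, Benjamini-Hochberg adjusted over 20348 genes, threshold 0.05). Of these genes 8063 (39.6%) were higher in HPB-ALL and 4753 (23.4%) were lower, 12816 (63%) in all. A mean of logs is pulled down by any line near 0, so a stricter call is used beside it, "beyond each line": HPB-ALL differs in the same direction from each of the 5 lines, by the largest of the 5 p-values, adjusted. By this call 1326 genes (6.52%) were higher than each line and 941 (4.62%) were lower than each. Without library 4 these counts were 7890, 4860, 1347 and 984. In 1351 genes (6.64%) all 4 HPB-ALL libraries lay above the 20 others, and in 905 (4.45%) below. With each line in turn as the one compared, the numbers higher and lower than each were 3214 and 2703 for KARPAS-45, 1942 and 1339 for LOUCY, 815 and 846 for ALL-SIL, 765 and 736 for TALL-1, and 649 and 459 for DND-41, so HPB-ALL came after KARPAS-45 and LOUCY in both directions. In gene ranks HPB-ALL was nearest to DND-41 (mean Spearman correlation 0.853 across genes, which are not independent replicates), followed by TALL-1 (0.839) and ALL-SIL (0.838), and farthest from LOUCY and KARPAS-45 (both 0.810).

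**Figure D2:**
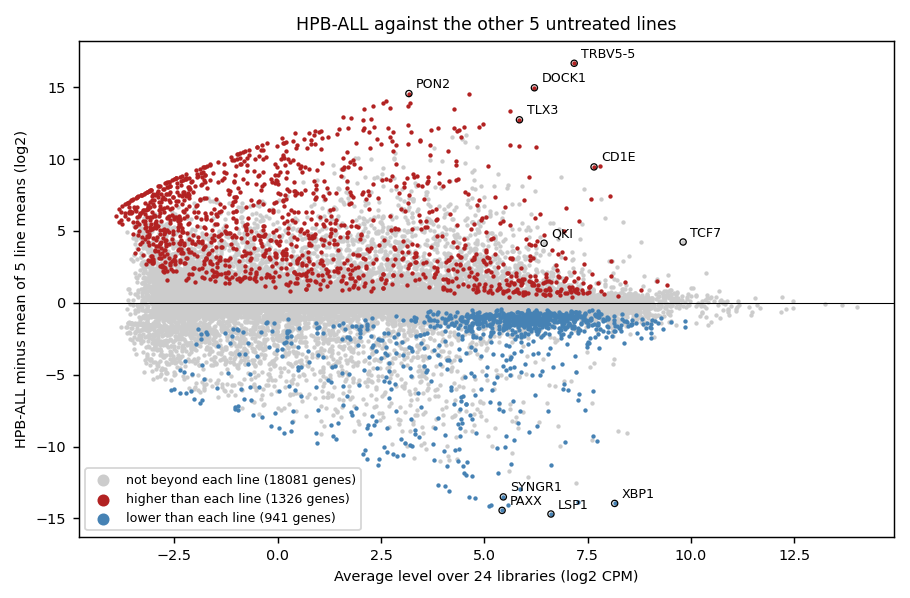
Log2 difference between HPB-ALL and the mean of the 5 other line means (y axis) against the average log2 CPM over 24 libraries (x axis), 1 point a gene; red marks the 1326 genes higher than each line, blue the 941 lower than each, grey the other 18081. QKI and TCF7 lie above 0 but are not higher than each line; the differences at the far ends of the y axis depend on the prior count, since 1 side is at or near 0.

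QKI (ENSG00000112531.17, chromosome 6, 163414000 to 163578596, + strand), the gene of the study, stood at 109.5, 156, 143 and 140.0 CPM in HPB-ALL. Its main contrast was 4.15 (log2, SE 0.10, edgeR adjusted p = 1.05e-19), but HPB-ALL lay within the range of the other lines, from 0 (LOUCY) to 162 (TALL-1), and was not beyond each (adjusted p = 0.826). The contrast rests on LOUCY, at 0, and KARPAS-45, at 6.71 ± 0.776 CPM. Of the other proteins of the STAR family of RNA-binding proteins, KHDRBS1 (SAM68, a splicing regulator) was lower in HPB-ALL than in each line, at 114, 127, 147 and 161 CPM against line means from 260.0 (DND-41) to 658 (KARPAS-45) (log2 difference -1.54, SE 0.11, edgeR adjusted p = 6.24e-06 beyond each). SF1, which binds the branch point, gave a difference of -0.05 (adjusted p = 0.61), and KHDRBS3 was at or under 4 counts a library in HPB-ALL.

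The genes with the largest rises in HPB-ALL were a mixed group of enzymes, adhesion and signalling genes, most of which had no or nearly no counts in other lines. At least 10 CPM in each HPB-ALL library and 0 counts in all 20 others was the pattern of 6 genes. PON2 was at least 735-fold higher than the floor of 3 counts per library. SOCS6, a suppressor of cytokine signalling, stood at 31.6, 43.9, 39.5 and 33.2 CPM (at least 484-fold higher). RTL8C, a retrotransposon-derived gene on the X chromosome, stood at 41.4, 34.1, 29.6 and 34.8 CPM (at least 454-fold). ELOVL2, which elongates polyunsaturated fatty acids, stood at 15.4, 18.2, 14.9 and 22.5 CPM (at least 229-fold), the long non-coding RNA LINC00648 at 22.05, 30.1, 26.8 and 39.7 CPM (at least 338-fold), and an unnamed non-coding gene on chromosome 10 completed the group. The same count for the other lines ran from 12 genes in LOUCY to 1 each in TALL-1 and ALL-SIL, so 6 lay within their range.

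Other large rises had a few counts elsewhere. MARCKS, a protein kinase C substrate at the membrane, stood at 104, 128, 119 and 112 CPM and had at most 5 counts in any other library. DSG2, a desmosomal cadherin, stood at 31.9, 53.0, 49.7 and 84.0 CPM, with at most 4 counts elsewhere. KANK4, of a family that controls actin, stood at 161, 253, 227 and 109 CPM against at most 0.167. TUSC1, TRIM58 and AASS, an enzyme of lysine breakdown, had means of 20.5 ± 4.06, 24.8 ± 3.26 and 28.6 ± 18.4 CPM and at most 3 counts in any other library. AASS was uneven, at 15.1, 21.9, 21.6 and 55.8 CPM, library 4 being the high one; its log2 difference was 12.79, and 12.23 without that library, both dependent on the prior count. CR2, the complement receptor that also binds Epstein-Barr virus, stood at 146, 297, 294 and 369 CPM against 17.2 ± 10.0 in DND-41 and at most 0.0224 in the rest, and was higher than each line (edgeR adjusted p = 1.44e-07). IL4, a cytokine chosen after its values were seen, stood at 18.5, 8.12, 12.6 and 10.2 CPM, with at most 1 count in any other library.

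The promoter of PON2 is shown because this gene was read in HPB-ALL alone among the 6 lines. The 150 bases from 250 to 101 before its RefSeq start (GRCh38.p14, chr7:95435129-95435278, minus strand) are given 5′ to 3′ with each CG, the dinucleotide that DNA methylation acts on, in capitals. They hold 7 CG, and the whole window of 300 bases holds 24, with 62.33% GC and an observed-over-expected CpG ratio of 0.874.

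PON2: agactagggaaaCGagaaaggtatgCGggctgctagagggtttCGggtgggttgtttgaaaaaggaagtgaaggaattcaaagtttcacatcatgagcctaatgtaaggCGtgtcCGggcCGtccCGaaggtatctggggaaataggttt

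The largest falls were genes read in every other line and absent or nearly absent in HPB-ALL. LSP1, an actin-binding protein of leukocytes, had 0 counts in HPB-ALL and line means from 3.61 (KARPAS-45) to 239 (ALL-SIL) CPM, so it was at least 55.7-fold lower than in the lowest other library. XBP1, the transcription factor of the unfolded protein response and of plasma cells, had at most 1 count in any HPB-ALL library, against line means from 66.0 (KARPAS-45) to 803 (DND-41) CPM. PPDPF, a gene named for pancreatic development, had at most 2 counts against 66.6 (KARPAS-45) to 256 (TALL-1) CPM. ARRB1, an arrestin that ends signalling of G-protein-coupled receptors, had 0 counts against 5.75 (KARPAS-45) to 125 (LOUCY) CPM (at least 92.6-fold lower), and RGS19, another brake on such signalling, at most 1 count against 24.9 (KARPAS-45) to 169 (TALL-1) CPM. SLCO4A1, an organic anion transporter, had 0 counts and was at least 93.7-fold lower. SYNGR1, a synaptic vesicle protein, also had 0 counts, but ALL-SIL held only 1.38 ± 0.699 CPM, so the bound is 6.17-fold.

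With 0 counts in the 4 HPB-ALL libraries and at least 10 CPM in each of the 20 others there were 5 genes. PAXX, a factor of DNA end joining that binds the Ku proteins, had line means from 36.0 (LOUCY) to 79.2 (ALL-SIL) CPM and was at least 513-fold lower in HPB-ALL. ZNF74, a zinc finger protein, had 31.0 (KARPAS-45) to 51.1 (TALL-1) CPM (at least 478-fold lower). AGPAT2, an enzyme of phospholipid and triglyceride synthesis, had 14.6 (KARPAS-45) to 72.7 (LOUCY) CPM (at least 225-fold), SAMD10 had 11.4 (KARPAS-45) to 47.1 (ALL-SIL) CPM (at least 184-fold), and TSKU, a secreted modulator of growth factors, had 10.9 (DND-41) to 31.2 (LOUCY) CPM (at least 172-fold). The same count with another line as the silent one was 10 for KARPAS-45, 9 for ALL-SIL, 8 for LOUCY, 5 for TALL-1 and 2 for DND-41, so 5 silent genes is within the range of these lines.

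The promoter of PAXX is shown as that of a gene with no read in HPB-ALL and at least 30.4 CPM in each other library. The same stretch before its RefSeq start (GRCh38.p14, chr9:136992172-136992321, plus strand) holds 16 CG. The window of 300 bases holds 38, with 75.67% GC and an observed-over-expected ratio of 1.014.

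PAXX: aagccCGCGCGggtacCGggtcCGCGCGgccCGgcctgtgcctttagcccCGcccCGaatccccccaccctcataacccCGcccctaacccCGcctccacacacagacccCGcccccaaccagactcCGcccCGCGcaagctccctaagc

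At a looser threshold, 35 protein-coding genes were at or under 0.06 CPM in each HPB-ALL library with each other line mean at or above 1 CPM, and 66 showed the reverse. A RefSeq promoter was matched for 27 and 50 of them. An observed-over-expected CpG ratio of at least 0.6 was found in 24 of the 27 (88.89%), in 36 of the 50 (72.0%), in 8762 of 11100 protein-coding genes tested (78.94%) and in 88.55% of genes with at least 1 CPM in all 6 lines. The share among genes off in HPB-ALL was near that of genes read in all lines. Methylation was not measured in these files.

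The nearest tested protein-coding gene on each side, at whatever distance, was looked up for 13 of the risen and 12 of the fallen genes. Below, "beside" and "next to" mean this nearest tested gene, and untested genes may lie between. Of 26 neighbours of risen genes 17 were higher in the main contrast, 3 were lower and 6 were not called, where 36.1% of all tested protein-coding genes were higher and 29.7% lower. Of 24 neighbours of fallen genes 13 were lower, 2 were higher and 9 were not called. The neighbours given here were named after their values were seen. PON1, the secreted paraoxonase beside PON2, stood at 48.2, 51.3, 55.2 and 58.8 CPM and had at most 4 counts elsewhere. Of 8 tested genes of the list of paraoxonases and their neighbours on chromosome 7, 6 were higher in HPB-ALL and 5 were higher than each line (CASD1, PON1, PON2, ASB4 and DYNC1I1), though ASB4 held only 0.504 ± 0.317 CPM. The median log2 difference of the list was 4.79, against 0.15 over all genes. The list holds the marker PON2 and was drawn up with earlier results known, so this median is a description and no test. DHX32, an RNA helicase gene and the nearest tested one before DOCK1 on chromosome 10, though not adjacent to it, stood at 11.1 ± 1.26 CPM with at most 2 counts elsewhere. RTL8A, beside its relative RTL8C, stood at 24.7 ± 6.21 CPM against 3.16 ± 0.663 in KARPAS-45 and at most 0.0136 in the rest. CR1, the complement receptor gene beside CR2, stood at 17.6, 29.1, 26.9 and 77.0 CPM, library 4 being the highest. Overlapping or adjacent genes on opposite strands may share reads, since the strand setting of the counting was not given in the sources used here.

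Among the falls, ABCA2, a lipid transporter gene next to PAXX, had at most 2 counts in HPB-ALL against 25.7 (KARPAS-45) to 95.5 (LOUCY) CPM. ZNF512B, next to SAMD10 on chromosome 20, stood at 0.0424 ± 0.0256 CPM against 57.9 (LOUCY) to 172 (DND-41), and PRPF6, a splicing factor on its other side, at 43.4 ± 6.41 against 105 (LOUCY) to 236 (TALL-1). TCEA2, an elongation factor next to RGS19, stood at 0.327 ± 0.192 CPM against 12.6 (KARPAS-45) to 90.9 (TALL-1). Of the 35 genes off in HPB-ALL, out of 13765 tested protein-coding genes, 5 lie on chromosome 20 (SLCO4A1, PPDPF, SAMD10, RGS19 and OPRL1) out of 361 tested there, and 5 on chromosome 22 out of 342. These chromosomes held the most such genes and were picked after the values were seen. Of the 66 genes with the reverse pattern, 11 lie on chromosome 1 out of 1416 and 10 on chromosome 7 out of 639. The neighbours called in the other direction were LCP2 beside TLX3 (-1.22, log2), FAM229B beside MARCKS (-0.62), CAAP1 beside TUSC1 (-0.24), EMSY beside TSKU (0.60) and SCARF2 beside ZNF74 (2.53). Among those that did not pass the test, CCDC117 beside XBP1 gave -0.05 (log2, adjusted p = 0.734), SMIM13 beside ELOVL2 0.06 (adjusted p = 0.56) and RTTN beside SOCS6 -0.15 (adjusted p = 0.191).

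HPB-ALL had high levels of genes of the cortical thymocyte stage. All 5 CD1 genes were higher in the main contrast, and 4 were higher than each line, against 39.6% and 6.52% of all genes. The list holds the marker CD1E and was drawn up with earlier results known, so these counts are a description and no test. CD1A stood at 404, 406, 398 and 191 CPM, above the next line, TALL-1 (83.6 ± 38.3), in every library although library 4 was the low one (log2 difference 4.75, SE 0.21, edgeR adjusted p = 4.47e-05 beyond each), and without library 4 the difference was 4.95. CD1C stood at 99.4, 117, 122 and 55.2 CPM against at most 4.49 ± 0.694 elsewhere, and CD1D at 45.3, 53.3, 48.6 and 27.4 CPM against at most 13.7 ± 0.550. CD1B, at 692 ± 61.8 CPM, was matched by DND-41 (651 ± 47.7; adjusted p = 0.971 beyond each). LOUCY was the lowest line in all 5, and the summed CD1 level was 1896 to 2561 CPM in HPB-ALL libraries and 1.19 to 826.5 CPM in the others. In bulk RNA such as this, fewer cells of a type and less RNA per cell cannot be told apart.

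Both coreceptors were read in HPB-ALL. CD4 stood at 371, 537, 467 and 517 CPM, higher than in each line, the next being ALL-SIL at 162 ± 11.9 (log2 difference 5.01, SE 0.08, edgeR adjusted p = 1.21e-09 beyond each). CD8A and CD8B stood at 311 ± 21.7 and 386 ± 33.4 CPM and were higher than in LOUCY, TALL-1, DND-41 and ALL-SIL, but KARPAS-45 held more of both (521 ± 87.1 and 625 ± 26.6). Of 28 tested surface antigens 18 were higher and 5 lower in the main contrast, against 39.6% and 23.4% of all genes. In this list 5 were higher than each line and 2 lower than each, against 6.52% and 4.62% of all genes. The median log2 difference was 1.54 against 0.15 over all genes. Higher than each were CD4, the costimulatory receptors CD28 and CD27, and CD5 and CD6, which dampen receptor signalling. CD28 stood at 342, 426, 368 and 607 CPM against 241 ± 43.5 in LOUCY, and CD5 at 240.1, 276, 229 and 311 CPM against 153 ± 3.73 in LOUCY, the next line in both. Among those lower than each was SPN (CD43, a surface mucin), at 122, 168, 156 and 162 CPM in HPB-ALL against line means from 262 (DND-41) to 498 (KARPAS-45). The pan-T gene CD7 gave 0.28 (adjusted p = 0.0225), lost its call without HPB-ALL library 1 (0.12, adjusted p = 0.341) and turned to -0.23 (adjusted p = 0.0705) without KARPAS-45. CD2, at 111 ± 28.5 CPM, was matched by TALL-1 (129.8 ± 30.4) and at or under 2.62 CPM in the rest.

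Transcripts of an alpha-beta receptor were read, and those of the delta chain were absent. TRAC, the alpha constant region, stood at 1241, 1168, 1160.2 and 866 CPM, higher than in each line, with 199 ± 21.2 in LOUCY next (log2 difference 7.44, SE 0.16, edgeR adjusted p = 3.39e-09 beyond each). TRBC2 stood at 3523, 2406, 2383 and 2047 CPM, near TALL-1 (2410.2 ± 289), and TRBC1 at 0.0887 ± 0.0245 CPM, where DND-41 had 1193 ± 162. TRDC had at most 1 count in any HPB-ALL library, against 1224 ± 78.0 CPM in LOUCY, 440.3 ± 107 in ALL-SIL and 158 ± 34.8 in DND-41, and 0 counts in KARPAS-45 and TALL-1. Transcripts of the CD3 chains CD3D, CD3E and CD3G were higher in the main contrast and not beyond each line: CD3E stood at 925 ± 168 CPM against line means from 371 (KARPAS-45) to 1039 (DND-41). Of 37 tested genes of the receptor complex and its signalling 19 were higher and 10 lower, against 39.6% and 23.4% of all genes. TRAC and CD28 were higher than each line. The adaptor LCP2 (SLP-76) at 35.8, 38.3, 35.5 and 35.5 CPM against 63.3 (KARPAS-45) to 158 (LOUCY), the adaptor SLA2 at 3.96 ± 1.54 against 11.2 (KARPAS-45) to 205 (LOUCY), and the kinase PRKCQ were lower than each. PRKCQ stood at 14.4, 14.4, 14.9 and 41.6 CPM, so library 4 reached the level of the lowest other lines (42.4 ± 6.06 in DND-41); the log2 difference was -1.44, and -1.99 without library 4. LCK, the kinase that starts receptor signalling, stood at 356 ± 71.1 CPM against 169.9 (DND-41) to 805 (KARPAS-45) and did not pass the test (adjusted p = 1).

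The genes of receptor rearrangement were read, none was higher than each line, and the Ku genes of DNA end joining were lower than each. RAG1 and RAG2, the recombinase, stood at 54.5 ± 18.7 and 20.0 ± 6.01 CPM, higher in the main contrast, with DND-41 far above them (750.3 ± 69.4 and 127 ± 17.9). DNTT, which adds bases at the joints, stood at 78.3 ± 27.1 CPM against 264 ± 124 in TALL-1, and PTCRA, the pre-T-cell receptor alpha chain, at 61.0 ± 9.48 against 104 ± 44.5. Of 14 tested genes of this list 6 were higher and 5 lower, against 39.6% and 23.4% of all genes. Of the Ku proteins, which hold DNA ends in end joining, XRCC5 stood at 127, 122, 154 and 119 CPM against 188 (DND-41) to 1344 (KARPAS-45) (edgeR adjusted p = 0.0116 beyond each) and XRCC6 at 160.0, 132, 171 and 106 against 224 (DND-41) to 1427 (KARPAS-45) (adjusted p = 0.0136). These are the partners of PAXX, which had no counts in HPB-ALL. LIG4 stood at 96.9 ± 20.1 CPM, 0.52 above the mean of the others on the log2 scale.

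Transcription factors of the T lineage moved in both directions. Of 38 tested, 19 were higher and 12 lower in the main contrast, against 39.6% and 23.4% of all genes. In this list 6 were higher and 4 lower than each line, against 6.52% and 4.62% of all genes. LEF1, a partner of beta-catenin in early T cells, stood at 1139, 1444, 1250.2 and 1067 CPM against 596 ± 179 in LOUCY, the next line. The chromatin organiser SATB1 stood at 197, 321, 301 and 222 CPM against 133 ± 16.3 in LOUCY, and RUNX3, a factor of the CD8 lineage, at 468, 396, 338 and 252 against 152 ± 14.4 in TALL-1. IKZF3 (Aiolos) at 209 ± 36.6 CPM, ETS2 at 815 ± 136 and TOX2 at 65.1 ± 3.40 were also higher than each, and all 4 libraries of each lay above the 20 others. Lower than each were SOX4 (325 ± 47.3 CPM against 518 (DND-41) to 777 (TALL-1)), TOX (59.2 ± 6.88 against 86.9 (DND-41) to 310.4 (KARPAS-45)), RUNX2 (0.150 ± 0.0839 against 0.634 (ALL-SIL) to 29.1 (LOUCY)) and PRDM1 (BLIMP1, a factor of effector cells; 0.0696 ± 0.00709 against 0.505 (ALL-SIL) to 6.04 (DND-41)). TCF7, the early T-cell factor TCF1, stood at 1961, 2069.6, 1911 and 1833 CPM and gave a difference of 4.23, which rests on LOUCY (0.169) and DND-41 (54.0 ± 18.1). KARPAS-45 and TALL-1 held 1308 ± 59.9 and 1364 ± 277, and it was not beyond each (adjusted p = 0.153). GATA3 was lower by -0.82 in the main contrast and not beyond each, and BCL11B gave 0.13 (adjusted p = 0.467).

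Of 21 tested T-ALL oncogenic transcription factors, 9 were higher and 3 lower in the main contrast, against 39.6% and 23.4% of all genes. TLX3 and LMO3 were higher than each line. LMO3 held only 0.873, 0.917, 1.22 and 0.584 CPM and had 0 counts elsewhere. TLX3 was higher than each line with an edgeR adjusted p of 0.00737. As a marker it was chosen with results of these libraries known, so this p-value is no independent support. The related TLX1 had at most 1 count in any HPB-ALL library, where ALL-SIL held 392 ± 30.6 CPM. HOXA9 had 0 counts and MEF2C at most 1, where LOUCY held 64.7 ± 13.9 and 139 ± 26.4 CPM. LYL1 stood at 12.9 ± 3.01 CPM, between LOUCY (279 ± 25.6) and KARPAS-45 (0.0333). MYC stood at 359.8, 407, 402 and 107 CPM, library 4 being the low one, and its main contrast of 2.92 (3.21 without library 4) rests on LOUCY (0.0143 CPM): without LOUCY it was 0.09 (edgeR adjusted p = 0.82). The list of genes around TLX3 on chromosome 5 moved in both directions. It also held TLX3 itself and BCL11B, which lies on another chromosome and was not called. Of its 15 tested genes 6 were higher and 4 lower, with FBXW11 higher than each line at 94.7 ± 11.1 CPM, and LCP2 and STK10 lower than each. NPM1, the nearest tested gene after TLX3, stood at 924 ± 215 CPM against 476 (LOUCY) to 1056 (TALL-1) and was not beyond each.

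Genes of immature cells were mixed. Of 18 tested 10 were higher and 2 lower in the main contrast, against 39.6% and 23.4% of all genes. BAALC and FLT3 were higher than each line, and BCL2 was lower than each. BAALC, a marker of immature leukaemia, stood at 36.4, 41.9, 40.8 and 37.5 CPM against at most 0.139 elsewhere. FLT3, a receptor of early progenitors, stood at 5.93 ± 0.821 CPM against 2.75 ± 0.311 in KARPAS-45. KIT had at most 1 count in any HPB-ALL library. LMO2 stood at 0.448 ± 0.273 CPM, where LOUCY held 32.2 ± 2.44.

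The NOTCH pathway, which drives early T-cell growth and is often mutated in T-ALL, was read in HPB-ALL at levels shared with other lines. Of 27 tested receptors and targets 14 were higher and 7 lower, against 39.6% and 23.4% of all genes. NOTCH2 and CR2 were higher than each line. NOTCH1 stood at 637 ± 105 CPM against 61.6 (LOUCY) to 886 (KARPAS-45) and NOTCH3 at 355 ± 121 against 0.158 (LOUCY) to 1070.4 (KARPAS-45); neither was beyond each, and the NOTCH3 contrast of 1.84 turned to -0.48 without LOUCY. NOTCH2 stood at 116, 201, 187 and 268 CPM against 120.1 ± 21.3 in ALL-SIL, the next line, and library 1 lay within the range of that line's libraries. The target DTX1 stood at 685 ± 39.6 CPM against 0 (LOUCY) to 886 (DND-41), and HES1 at 11.6 ± 1.52 against 4.03 (LOUCY) to 99.9 (DND-41). SHQ1, a target that serves ribosome assembly, was lower than each, at 21.2, 23.0, 22.2 and 10.7 CPM (log2 difference -2.09, and -1.89 without library 4). IL7R, the receptor of the thymic growth factor IL-7, stood at 280.0, 355, 368 and 229 CPM, second to DND-41 (639 ± 59.3). Of 26 tested genes of its pathway 10 were higher and 13 lower, with PIM3 higher than each, and SOCS3 and BCL2 among those lower than each. SOCS3 had at most 3 counts in any HPB-ALL library against 2.33 (LOUCY) to 17.1 (ALL-SIL) CPM, the reverse of its relative SOCS6.

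Within the BCL2 family, which sets the balance between cell death and survival, 3 of 17 tested genes were lower than each line and 1 was higher. Of all genes tested 4.62% were lower than each line and 6.52% were higher. BCL2L11 (BIM, which starts apoptosis) stood at 1.41, 3.48, 2.50 and 2.99 CPM in HPB-ALL against line means from 56.6 (LOUCY) to 109 (ALL-SIL), a log2 difference of -5.01 (SE 0.23, edgeR adjusted p = 2.55e-13 beyond each). Every HPB-ALL library was below every other library. The survival genes BCL2 and BCL2L1 (BCL-XL) were also lower than each line, at 54.1, 74.9, 64.8 and 58.9 and 91.1, 89.6, 82.8 and 68.3 CPM, with differences of -1.80 (SE 0.12) and -1.40 (SE 0.14). PMAIP1 (NOXA, which counters MCL1) was higher than each, at 295, 348, 291 and 424 CPM. Of the 17 tested members of the family 4 were higher and 5 lower in the main contrast, and 8 were not called. The shares over all genes were 39.6% higher and 23.4% lower. Of 30 tumour suppressors of T-ALL 10 were higher and 10 lower. FBXW7, the ubiquitin ligase that degrades NOTCH1 and MYC, was higher than each line at 101, 135, 113 and 154 CPM. Of 14 tested genes of the glucocorticoid response 4 were higher and 3 lower. NR3C1, the receptor, gave -0.18 (adjusted p = 0.409) and -0.43 (adjusted p = 0.0425) without library 4. SGK1, a kinase induced by the receptor, was higher than each at 40.6, 36.3, 25.0 and 44.6 CPM, and TXNIP, which binds thioredoxin, was lower than each at 7.94 ± 3.31 CPM against 57.4 (LOUCY) to 243 (ALL-SIL).

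DOCK1 was the only member of its list higher than each line, and its relative DOCK5 was lower than each. Of 29 tested DOCK, ELMO and RAC genes 6 were higher and 10 lower in the main contrast and 13 were not called, and ELMO1 and TIAM1 were also lower than each line. DOCK1 needs an ELMO protein to activate RAC, and ELMO1 stood at 21.8, 19.7, 19.7 and 12.1 CPM against 26.0 (DND-41) to 145 (KARPAS-45). DOCK5, a close relative of DOCK1, stood at 0.998, 1.14, 1.06 and 0.621 CPM against 47.2 (KARPAS-45) to 144 (ALL-SIL), a log2 difference of -6.40 (SE 0.18). DOCK2, the main member in lymphocytes, gave -0.18 (adjusted p = 0.104), and -0.28 (adjusted p = 0.021) without library 4. Of 35 chemokine receptor, integrin and migration genes 17 were higher and 12 lower. For this list and the DOCK list, the shares over all genes were 39.6% higher and 23.4% lower. CX3CR1, the fractalkine receptor, stood at 46.1, 43.8, 38.2 and 50.1 CPM against 6.80 ± 1.46 in TALL-1, and ITGAE, the integrin that binds E-cadherin, at 142, 119, 130.4 and 101 against 63.8 ± 9.12 in KARPAS-45; both, and CXCR5, were higher than each line. CCR8 had at most 2 counts in any HPB-ALL library against 1.18 (LOUCY) to 122 (TALL-1) CPM. ITGA5, the fibronectin receptor, stood at 0.307 ± 0.0319 CPM against 1.66 (KARPAS-45) to 116 (LOUCY), and both were lower than each line.

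**Figure D3:**
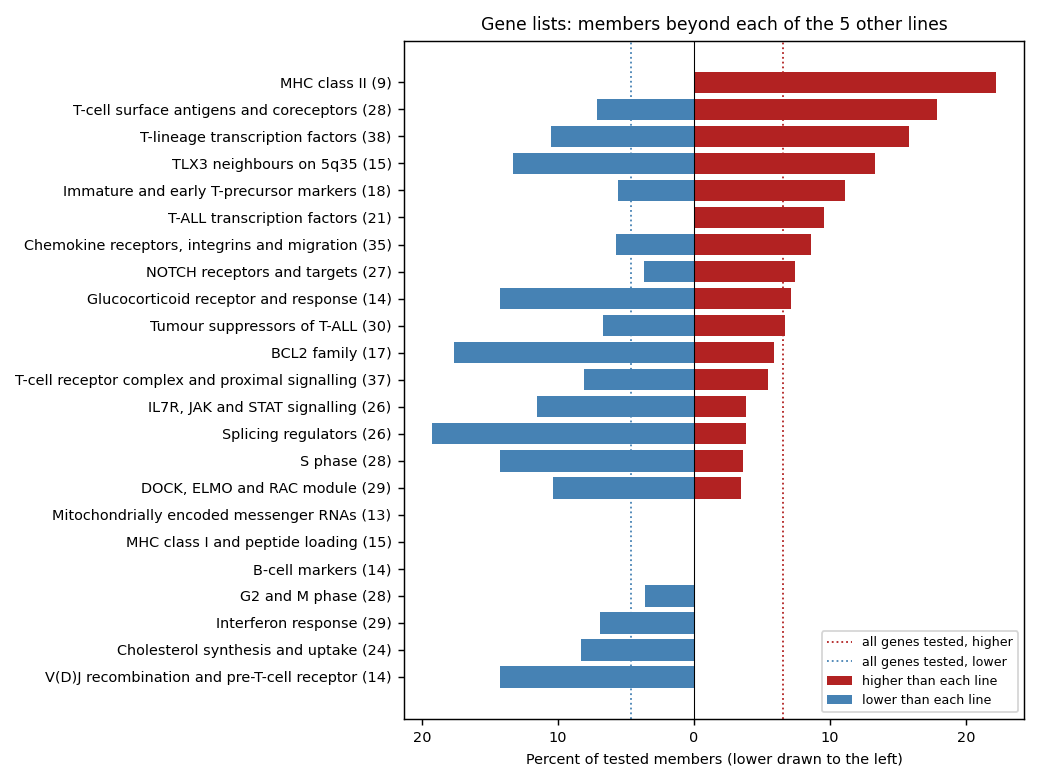
Percent of the tested members of each gene list (number tested in brackets) that were higher (red, to the right) or lower (blue, to the left) than each of the other 5 lines, for lists with at least 9 tested members; dotted lines mark the shares over all genes tested, 6.52% and 4.62%. Surface antigens, MHC class II and T-lineage factors reach farthest to the right, and splicing regulators and the BCL2 family reach farthest to the left.

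Genes of division and of splicing were lower more often than higher in the main contrast, where 39.6% of all genes were higher and 23.4% lower (33.0% and 34.0% of protein-coding genes with an average log2 CPM of 1 or more). Of 28 tested S-phase genes 3 were higher and 15 lower, with a median log2 difference of -0.39, and of 28 genes of G2 and M phase 1 was higher and 16 lower, with a median of -0.52. Summed levels of G2 and M genes were 2640 to 3389 CPM in HPB-ALL libraries, within the range elsewhere (1940 to 8306). Those of S-phase genes were 3608 to 3977 CPM against 3698 to 12186. Of all genes tested 4.62% were lower than each line. The helicase subunits MCM2, MCM3, MCM5 and MCM6 were lower than each line, MCM6 at 121, 120.4, 139 and 121 CPM against 198 (DND-41) to 959.9 (KARPAS-45), and so was the spindle gene TPX2, the 1 of the 28 genes of G2 and M phase with that call. CCNE1, the cyclin of S-phase entry, was higher than each at 46.1, 35.7, 33.5 and 33.0 CPM. MKI67 (-0.20, adjusted p = 0.361) and TYMS (0.11, adjusted p = 0.412) did not pass the test. Of 26 splicing regulators 4 were higher and 14 lower. RBM5, RBM10, PTBP1, MBNL3 and CELF5 were lower than each, with PTBP1 at 242, 238, 264 and 196 CPM against 331 (DND-41) to 1039 (KARPAS-45), and RBM38 was higher than each at 449, 414, 375 and 309 CPM against 166 ± 20.5 in LOUCY. Of 24 genes of cholesterol synthesis and uptake 5 were higher and 14 lower, with FDFT1, the squalene synthase, lower than each at 209, 206, 209 and 203 CPM against 473 (DND-41) to 785 (KARPAS-45), and MVD also lower than each.

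Genes of antigen presentation and of the interferon response were more often higher than lower in the main contrast. The same holds for all genes tested, of which 39.6% were higher and 23.4% lower. Summed levels in HPB-ALL libraries lay within the range elsewhere. They were 3279 to 3749 CPM against 1506 to 7748 for MHC class I and 221 to 273 against 206 to 318 for class II. Interferon genes summed to 581 to 633 CPM against 576 to 1042. Of 15 MHC class I genes 9 were higher and 3 lower, and of 29 interferon genes 18 were higher and 6 lower; none of either list was higher than each line, and OASL was among those lower than each. Of 9 tested MHC class II genes 5 were higher, none was lower, and CD74 and HLA-DOB were higher than each at 1.09 ± 0.500 and 1.45 ± 0.0430 CPM. Of 13 mitochondrially encoded messenger RNAs 2 were higher and 5 lower.

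Markers of other cell types were read in HPB-ALL at differing levels. Their part in the results was not tested. In the main contrast 39.6% of all genes tested were higher and 23.4% lower. Of 14 tested B-cell markers 7 were higher and 1 lower, with none beyond each line; the list summed to 146.1 to 409.3 CPM in HPB-ALL libraries and 10.99 to 2921 elsewhere, and MS4A1 did not reach the level needed for testing. The 8 tested myeloid markers summed to 14.9 to 34.4 CPM, against 0.501 to 109.2 elsewhere, with 2 higher and 2 lower. The 4 tested erythroid and megakaryocyte markers summed to 1.59 to 2.23 CPM, against 9.54 to 711 elsewhere, with 3 lower, and EPOR was lower than each line at 1.18, 1.63, 1.64 and 1.57 CPM against 8.53 (KARPAS-45) to 30.1 (LOUCY). The 8 tested natural killer cell markers summed to 68.2 to 83.4 CPM, against 13.1 to 396 elsewhere, with 5 higher and none lower, and XCL1 (4.81 ± 0.552 CPM) and GNLY (0.747 ± 0.135) were higher than each line, while KLRF1 and KLRK1 had 0 counts. The 7 tested fibroblast and epithelial markers summed to 189.5 to 327.3 CPM, against 265.9 to 877.2 elsewhere, with 3 higher and 3 lower; KRT8 (1.94 ± 0.327 CPM) and CDH1 (5.69 ± 2.14) were higher than each, and EPCAM had 0 counts.

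Genes of the first part of chromosome 3 were lower in HPB-ALL as a group. Among 11116 protein-coding genes whose average log2 CPM was 1 or more, 7.30% were lower and 3.82% higher than each line. On chromosome 3, 22.9% of 624 genes were lower than each. They lay before 80 Mb (GRCh38), a boundary chosen after the values were seen: there 133 of 304 genes (43.8%) were lower than each and 3 were higher, and 244 (80.3%) were lower in the main contrast. After 80 Mb 10 of 320 (3.12%) were lower than each, and on all other chromosomes 669 of 10515 (6.36%). The median log2 difference was -0.95 before 80 Mb and 0.06 after it. Against single lines the median before 80 Mb ran from -0.72 (TALL-1) to -1.24 (LOUCY), so it was below 0 against each. In windows of 20 Mb the share lower than each was 45.6%, 43.4%, 44.7% and 31.8% up to 80 Mb, then 0% in the next. DNA copy number was not measured in these files.

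Named after their values were seen, the most abundant of these genes included RPL15, a ribosomal protein, at 417 ± 92.7 CPM in HPB-ALL against a mean of 1023 over the 5 other lines. TKT, the transketolase of the pentose phosphate pathway, stood at 98.1 ± 15.1 CPM against 477, a log2 difference of -2.09 (SE 0.15, edgeR adjusted p = 7.09e-07 beyond each). TOP2B, a topoisomerase, stood at 121 ± 21.5 against 402, and SMARCC1, a core subunit of the BAF chromatin remodeller, at 71.2 ± 15.0 against 323. GNAI2, RHOA and the tumour suppressor BAP1 had differences of -1.17, -0.88 and -1.21. All 4 HPB-ALL libraries lay below the 20 others in each of these 7 genes, as in 4.45% of all genes tested. The 7 were taken from genes already called lower than each line, so this adds no support. The 3 genes of this stretch that were higher than each line were SATB1 and CX3CR1, given above, and CMTM7 (log2 difference 4.22). RBM5 and SHQ1, given above with the splicing and NOTCH lists, and CCR8 lie there too. On chromosome 16 the share lower than each was 17.8% of 516 genes, with 29.3% of 58 genes from 40 to 60 Mb and 27.9% of 111 from 60 to 80 Mb. From 20 to 40 Mb 27 of 113 genes were higher than each and 20 (17.7%) were lower than each.

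**Figure D4:**
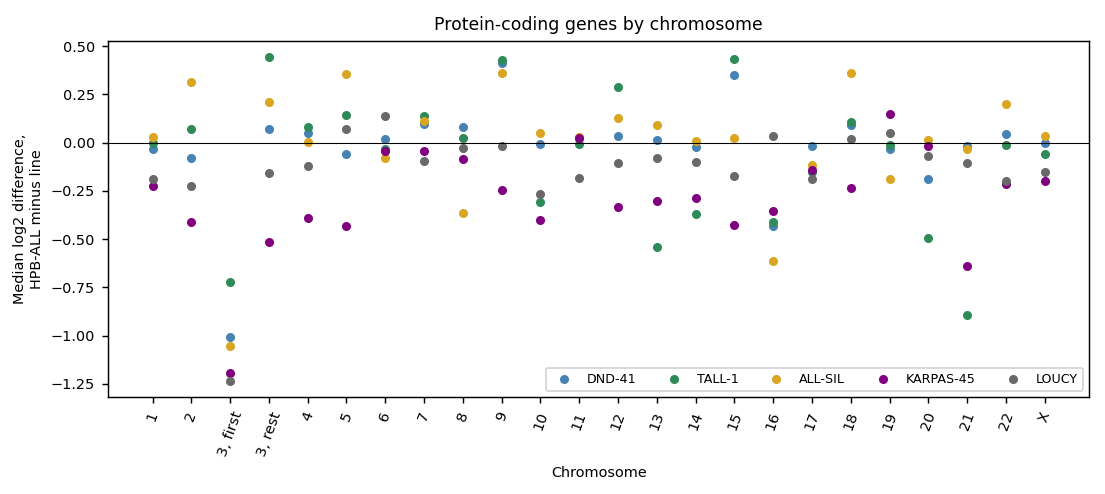
Median log2 difference between HPB-ALL and each other line (colours) over protein-coding genes whose average log2 CPM was 1 or more, by chromosome, with chromosome 3 split at 80 Mb. For the first part of chromosome 3 all 5 points lie between -0.72 and -1.24, and for the rest of it between -0.51 and 0.44.

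KARPAS-45 is the line grown at the same serum level. Against it alone 8515 genes (41.8%) were higher and 6986 (34.3%) lower in HPB-ALL (edgeR, same fit); this comparison shares the HPB-ALL and KARPAS-45 libraries with the main one. All 5 markers were also higher there, and BCL2L11, XBP1, PAXX and LSP1 were lower, with log2 differences of 6.75 for CD1E and -4.99 for BCL2L11. These genes were already known to lie beyond all KARPAS-45 libraries, so their directions here were fixed in advance. Without KARPAS-45 in the mean, 6945 genes were higher and 4665 lower. Whether the serum level plays a part in any difference was not tested.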

How the data were processed

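Polyadenylated RNA of 6 untreated lines (4 libraries each) was sequenced. The authors deposited whole-number read counts for each gene, unnormalized, made with Trimmomatic 0.39 and STAR 2.7.11b on GRCh38, per the submitters' processing notes; the counter, its strand setting and its annotation were not given in the sources used here. Of 62754 genes, 62700 had a symbol and 58261 a position in GENCODE 29.

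The test was run in R 4.3.3 with edgeR 4.0.16 (filterByExpr, TMM, quasi-likelihood F test, all 24 libraries, Benjamini-Hochberg threshold 0.05). In simulated data 95 of 100 genes changed 2-fold and 100 of 100 changed 4-fold were recovered (67 and 98 beyond each line), with 0.0738% of unchanged genes called, among 19174 genes. The simulation gave every line the same mean for each gene, apart from the changed genes in HPB-ALL. The real lines differ in many genes, so these rates need not hold for the real comparison.

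Members and the 30 gene lists were chosen with earlier results of these data known. The rule named QKI, the 5 markers, the 14 largest rises and 12 largest falls without overlap, V segments of at least 20 CPM, silent genes and up to 4 called members a list with the smallest p (162 genes, not all printed). A further 85, such as list members beyond each line and neighbours, were named after their values were seen. Results for some of these genes are not reported here. Promoters are from RefSeq. Columns carry replicate numbers except 2 of LOUCY. Same-number correlations of deviations between lines were -0.101 to 0.357, so numbers were not taken to pair libraries. HPB-ALL libraries differed from each other beyond counting noise (chi-square over degrees of freedom at least 43.2). Alternatives were DESeq2 1.42.0, limma-voom (limma 3.58.1), other scalings and filters, glmTreat and libraries or lines left out.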

Additional observations from a re-analysis of the deposited data

Results flagged for a closer look

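In 28 of 231 named genes with a count, 1 of the 4 HPB-ALL libraries lay so far from the other 3 that its gap took most of the range; the other lines were not looked at, and chance alone sets about 1 group in 20 apart. Library 1 stood apart in PRKDC (247 CPM), TRAV4 (61.4 CPM), RASGRP1 (165 CPM), EPOR (1.18 CPM) and MT-CO2 (4373 CPM). Library 2 stood apart in LCP2 (38.3 CPM). Library 3 stood apart in MCM6 (139 CPM). Library 4 stood apart in CD1A (191 CPM), CD55 (90.5 CPM), SHQ1 (10.7 CPM), AASS (55.8 CPM), MYC (107 CPM) and PRKCQ (41.6 CPM). In genes near 0 the library apart differed by a few counts: library 4 in CCR8 (0.0365 CPM), library 2 in GZMA, CSF1R, PDK4, TLX1 and RGS19 (0.0187 CPM), library 1 in KHDRBS3 (0.0713 CPM), library 2 in ABCA2 and PPDPF (0.0374 CPM), library 2 in OASL and XBP1 (0 CPM), library 3 in TRDC and MPO (0.0197 CPM), library 4 in JUNB and OPRL1 (0.0183 CPM). PRKCQ, SHQ1 and CCR8 stayed lower than each line over all 4 libraries, and CD1A and AASS higher than each; TLX3 was not among these genes.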

How the results depend on the processing

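Of 8772 comparisons of 244 named genes with an alternative, 8648 kept direction and side of the threshold. Against a fold of 2 (glmTreat) 3833 genes were higher and 1315 lower, and 692 and 274 beyond each line. With an average log2 CPM minimum of 1, an alternative chosen after seeing the data, 4476 were higher and 4045 lower (52.5% of called genes higher, against 62.9%), and 552 higher and 853 lower than each line. Genes silent in HPB-ALL numbered 9 at 5 CPM, 2 at 20 CPM and 13 with up to 3 counts a library allowed, and genes silent elsewhere 16 with up to 3 counts allowed. Against KARPAS-45 alone, a comparison that shares libraries with the main one, 6161 of the 8063 higher genes were also higher and 748 lower, and 3693 of the 4753 lower genes were also lower and 289 higher. Single libraries left out gave 7786 to 8418 higher and 4459 to 4860 lower. Directions turned for KHDRBS3 (-0.58) and CEBPA (-0.97) under limma-voom; for FCER1G (0.39), EZH2 (-0.062), BCL11B (-0.40), NOTCH3 (-0.48) and CD79A (0.70) without LOUCY; for IFI44 (-0.74), SC5D (-0.13), CD7 (-0.23), NKG7 (-0.82) and MT-ND6 (-0.0088) without KARPAS-45; for CD79B (-0.18) without TALL-1; and for PDGFRB (0.21) and CD79A (1.30) without DND-41. The cause was not tested.

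Upper-quartile scaling gave 9267 higher and 3991 lower (69.9% of called genes higher) with a median log2 difference over all genes of 0.27, against 0.15 with TMM; no filter gave 11105 and 4768 (69.96%), limma-voom 7761 and 6133 (55.9%). The replicate block, on the 22 libraries with a number, gave 8479 higher and 4925 lower. Same-number correlations ran from -0.101 to 0.357 (median 0.0698, n = 18 pairs). Those of other numbers ran from -0.364 to 0.200 (median -0.00264, n = 54). The ranges overlapped, which cannot exclude that the numbers pair the libraries, and the labels give no pairing. Depth limits genes at 0: a value under 3 counts a library cannot be told from 0.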
